A study of Mus musculus with 6 samples.

Results

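The 52 genes described here encode proteins of mitosis: the cyclins and kinases that start it, the kinetochore, the spindle and its motors, the spindle checkpoint, condensin and the machinery of cytokinesis. They were taken by symbol from a fixed list, and all 52 were found among the 20637 genes listed for each library. Values are FPKM, in which fragments are scaled to the length of a gene and to the size of the library. RNA was measured in whole uteri of female mice on postnatal day 21, with 3 libraries from Nat10 f/f mice and 3 from Nat10 d/d mice. Nat10 encodes an enzyme that acetylates cytidine in RNA. In common mouse notation f/f stands for a pair of floxed alleles, which Cre recombinase can delete, and the d/d uterus is the one the study calls deleted. The labels name neither the Cre line nor the cells in which it acts. They do not say whether a library is 1 animal or a pool, so p-values measure only the spread between these libraries.

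Genes of this kind are switched on together late in the cell cycle. In G2 phase and mitosis, cyclin B and Cdk1 drive chromosome condensation, the kinetochore joins each chromosome to the spindle, and the checkpoint holds back anaphase until every kinetochore is attached. Resting cells keep most of these genes silent through the DREAM complex, which binds a short promoter element called the cell cycle genes homology region (CHR). In dividing cells the MMB complex and the factor Foxm1 activate them through the same element, often with NF-Y bound at CCAAT boxes nearby. In the uterus, growth of epithelium and stroma before puberty and under steroid hormones is accompanied by their expression.

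Promoter sequence is shown first, as a feature that the choice of members by function did not use. RefSeq promoter windows on GRCm38.p6, running from 250 bases before to 50 bases after an annotated start, were found for 43 of the 52 members, in 50 windows. No window was found for Aurkb, Ccna2, Cdc25c, Foxm1, Incenp, Kif20a, Smc4, Spc24 and Tpx2. The CHR was searched as TTTGAA or TTCGAA and the NF-Y site as CCAAT, each on both strands. A CHR match was present in 37 of the 50 member windows (74%, exact 95% binomial interval 59.7% to 85.4%), against 19.2% of all 32851 windows in the table. CCAAT was present in 40 member windows (80%) and in 37.4% of all windows. Both motifs occurred together in 33 member windows (66%) and in 7.52% of all windows. The interval treats windows as independent, although some members have more than 1 overlapping window. An E2F site, searched as TTTCCCGC, TTTCGCGC, TTTGCCGC or TTTGGCGC on both strands, was present in 3 member windows (6%) and in 2.26% of all windows. A CHR match shared bases with another of these motifs in 1 member window, that of Cdca8.

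The stretches below lie upstream of the annotated start of 6 members from several mitotic roles, and stop short of any exon annotated in GENCODE M21. They were picked because each holds a CHR match outside annotated exons. Capitals mark CHR matches and CCAAT boxes, which on the opposite strand read as TTCAAA for the first CHR form and as ATTGG for the box. The stretches of Cdk1 and Cdc20, which encode the mitotic kinase and the activator of the anaphase-promoting complex, lie at chr10:69352939-69353058 (minus strand) and chr4:118437353-118437472 (minus strand). That of Kif11, the motor that pushes spindle poles apart, lies at chr19:37376262-37376381 (plus strand). That of Ncapg, a condensin subunit, lies at chr5:45669799-45669918 (plus strand). Those of Mki67 (the Ki-67 antigen) and Top2a (topoisomerase II alpha) lie at chr7:135716380-135716499 (minus strand) and chr11:99024190-99024309 (minus strand).
Cdk1: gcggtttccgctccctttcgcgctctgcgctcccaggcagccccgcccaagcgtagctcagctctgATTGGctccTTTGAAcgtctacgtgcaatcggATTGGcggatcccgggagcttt
Cdc20: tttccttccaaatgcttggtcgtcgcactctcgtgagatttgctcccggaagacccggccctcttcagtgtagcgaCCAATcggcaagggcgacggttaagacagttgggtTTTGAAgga
Kif11: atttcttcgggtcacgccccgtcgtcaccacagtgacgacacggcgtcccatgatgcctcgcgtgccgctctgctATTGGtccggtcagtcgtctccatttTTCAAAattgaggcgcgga
Ncapg: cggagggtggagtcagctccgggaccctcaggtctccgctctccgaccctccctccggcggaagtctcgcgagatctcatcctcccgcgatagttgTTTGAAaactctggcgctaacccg
Mki67: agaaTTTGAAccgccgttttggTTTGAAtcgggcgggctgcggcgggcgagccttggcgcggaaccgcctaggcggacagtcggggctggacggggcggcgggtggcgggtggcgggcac
Top2a: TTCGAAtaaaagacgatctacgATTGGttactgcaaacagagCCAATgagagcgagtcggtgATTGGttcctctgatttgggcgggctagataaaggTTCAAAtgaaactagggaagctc
The Kif11 stretch carries a CHR close to the start with a CCAAT box upstream of it, and the Top2a stretch carries CHR matches on either side of 3 CCAAT boxes. The Mki67 and Ncapg stretches hold CHR matches without a CCAAT box, but their promoter windows have CCAAT matches farther upstream, at -188, -166 and -141 from the start for Mki67 and at -176 for Ncapg. A match is a run of letters and does not show that a factor binds there.

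**Figure D1:**
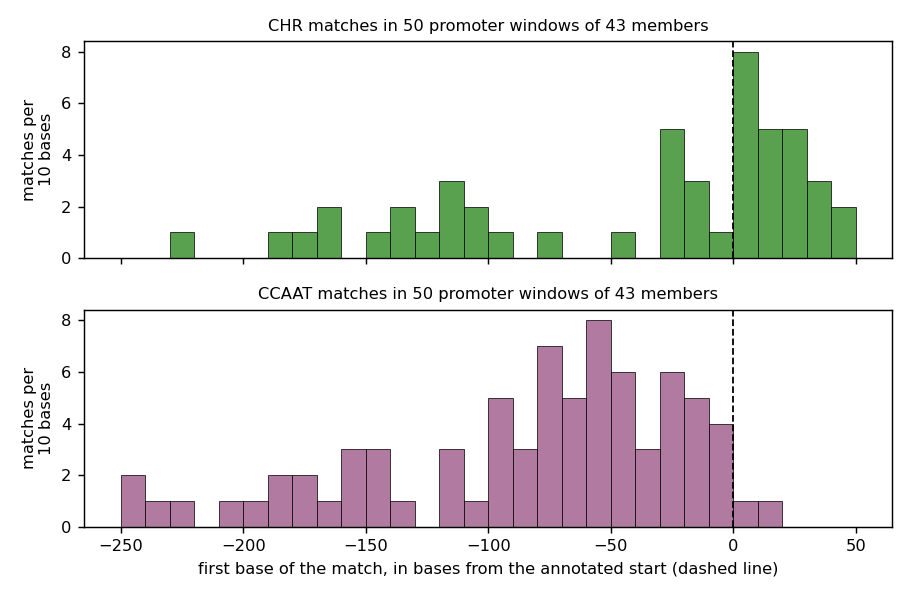
Number of CHR matches (top) and CCAAT matches (bottom) per 10 bases, by the distance of their first base from the annotated start (dashed line), in the 50 promoter windows of 43 members. Of the 49 CHR matches, 33 lie within 50 bases of the start, and CCAAT matches lie mostly upstream of it. A site in overlapping windows of a gene is counted in each window.

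CHR matches clustered around the annotated start, with 33 of 49 beginning within 50 bases of it. Matches were counted per window, so sites in the overlapping windows of Bub3, Ect2, Prc1 and Psrc1 entered more than once. The 33 members with a match and the 10 without one were compared by their spread over the 6 libraries. The range of log2(FPKM + 1) between the highest and lowest library had a median of 2.54 in the members with a match (0.50 to 4.07) and 2.65 in the members without (0.79 to 3.57). Further mitosis genes outside the member list had a CHR match in 36 of 61 windows (59%), while genes of DNA replication had one in 3 of 24 (12.5%). CCAAT was present in 65.6% of the windows of further mitosis genes and in 70.8% of those of DNA replication, so a high share of it was not particular to the members. An E2F site was present in 33.3% of the windows of DNA replication genes.

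The libraries differed by up to 1.26 times in depth. Relative to f/f replicate 1, the depth read from the lowest values was between 0.81 and 1.02, and summed FPKM ran from 500764 to 549263. The deepest libraries, d/d replicate 2 (1.02) and f/f replicate 1, also had the highest sums of mitosis genes, and the others were at 0.81 to 0.87. The part of depth in the mitosis values was not tested. Absolute depth is unknown, so no counting intervals are given for single values. Nat10, the targeted gene, was at 13.2, 16.4 and 9.95 FPKM in f/f libraries and at 5.57, 5.23 and 5.53 in d/d libraries, with no overlap (log2 change -1.11, SE 0.17; two-sided exact permutation p = 0.1, the smallest that 3 against 3 allow; limma adjusted p = 0.669). Lists of 5 to 10 markers of uterine and of other tissues were summed in each library. Smooth muscle (7 genes) summed to 3974 to 4576 FPKM in f/f and 3709 to 4758 in d/d libraries, stroma (8 genes) to 3265 to 3725 and 2643 to 3587, and epithelium (8 genes) to 597 to 696 and 677 to 768. Endothelium (6 genes) summed to 244 to 274 and 211 to 233, leukocytes (6 genes) to 68.0 to 91.6 and 61.0 to 87.4, and erythroid cells (7 genes) to 852 to 5581 and 710 to 1723. The ovary list (10 genes) summed to 40.1 to 40.5 and 28.1 to 39.6, with Fshr, Cyp19a1 and Zp3 at 0 in all libraries, oviduct and ciliated cells (5 genes) to 5.20 to 9.77 and 4.11 to 7.10, and fat (5 genes) to 2.00 to 81.0 and 2.36 to 16.8. Library d/d replicate 2, in which the mitosis genes were highest, had the lowest sums of the ovary, oviduct and leukocyte lists. Its stroma, muscle, epithelium and erythroid sums lay inside the f/f range, but none of the 8 stromal markers did on its own. Of the epithelial and muscle markers, only Cdh1, Acta2 and Des did. The matrix genes Col1a1 (984 FPKM), Col3a1 (1541) and Lum (231) were above every f/f library in d/d replicate 2 and below every f/f library in d/d replicates 1 and 3, the order seen for most mitosis genes. Dcn (646), Pdgfra (39.5), Hoxa11 (65.8), Wnt5a (44.5) and Hand2 (35.3) were below every f/f library in d/d replicate 2. In that library the epithelial markers Epcam (64.2), Krt8 (203), Cldn7 (67.8) and Wnt7a (24.7) were above every f/f library. Krt18 (116), Krt19 (156) and Foxa2 (1.25) were below. Of the muscle markers, Actg2 (486) and Cnn1 (415) were above, and Myh11 (490), Tagln (918) and Myocd (12.5) below. The stroma sums of d/d replicates 1 and 3, 2719 and 2643, were both below every f/f library. Its endothelium sum, 231, was below every f/f library and between those of the other d/d libraries. The part of cell makeup in the mitosis values was not tested.

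The mitosis genes separated the libraries from each other rather than by genotype. Summed over the 52 members, values were 406, 216 and 322 FPKM in f/f replicates 1, 2 and 3 and 225, 843 and 179 in d/d replicates 1, 2 and 3. That sum was 0.0772%, 0.0423% and 0.0643% of all FPKM in the f/f libraries and 0.0418%, 0.153% and 0.0348% in the d/d libraries. The d/d libraries thus held the highest value and the lowest, with d/d replicate 1 beside f/f replicate 2. The median member was at 5.98, 1.91 and 4.07 FPKM in f/f libraries and at 1.58, 14.1 and 1.12 in d/d libraries. All 52 members reached 1 FPKM in d/d replicate 2 and in f/f replicate 1, against 28 in d/d replicate 3. In whole-organ RNA, fewer dividing cells and less RNA per dividing cell cannot be told apart.

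The order of the libraries was shared by nearly all members. Library d/d replicate 2 was the highest of the 6 for 50 of the 52 (96.2%), against 30.1% of the 12640 genes tested. The 2 exceptions were Pttg1 and Cdc25b. It stood at a median of 3.42 times the f/f mean, from 0.959 times for Pttg1 to 7.13 times for Psrc1, and at more than 2 times the highest f/f library for 39 members. For 33 of the 52 (63.5%), d/d replicate 2 was above every f/f library while d/d replicates 1 and 3 were both below every f/f library, against 6.77% of all genes tested. Between d/d replicates 2 and 3 the ratio was above 10 for 33 members, with a median of 12.5 and a highest value of 54.6 for Nuf2. The exact order d/d 2, f/f 1, f/f 3, f/f 2, d/d 1, d/d 3 was found in 20 members, and 9 more differed from it by d/d 1 lying below d/d 3.

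The f/f libraries also differed among themselves in this way. The order f/f 1 over f/f 3 over f/f 2 held for 42 of 52 members (80.8%), against 16.7% of all genes tested. The ratio of f/f replicate 1 to f/f replicate 2 had a median of 3.11 over the 51 members with a value above 0 in both, and reached 7.48 for Psrc1. The fat markers followed the same order, with sums of 81.0, 2.00 and 6.39 FPKM in f/f replicates 1, 2 and 3, and the erythroid sum was also highest in f/f replicate 1 (5581, 2629 and 852). The part of these tissues in the order of the f/f libraries was not tested. The spread among d/d libraries was larger still. The SD of log2(FPKM + 1) among d/d libraries was a median of 2.47 times that among f/f libraries over the 48 members tested, against 1.73 times over all genes tested. It was 0.37 times without d/d replicate 2, 3.19 times without d/d replicate 1 and 2.82 times without d/d replicate 3. Without f/f replicates 1, 2 or 3 it was 2.90, 4.61 and 1.81 times.

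**Figure D2:**
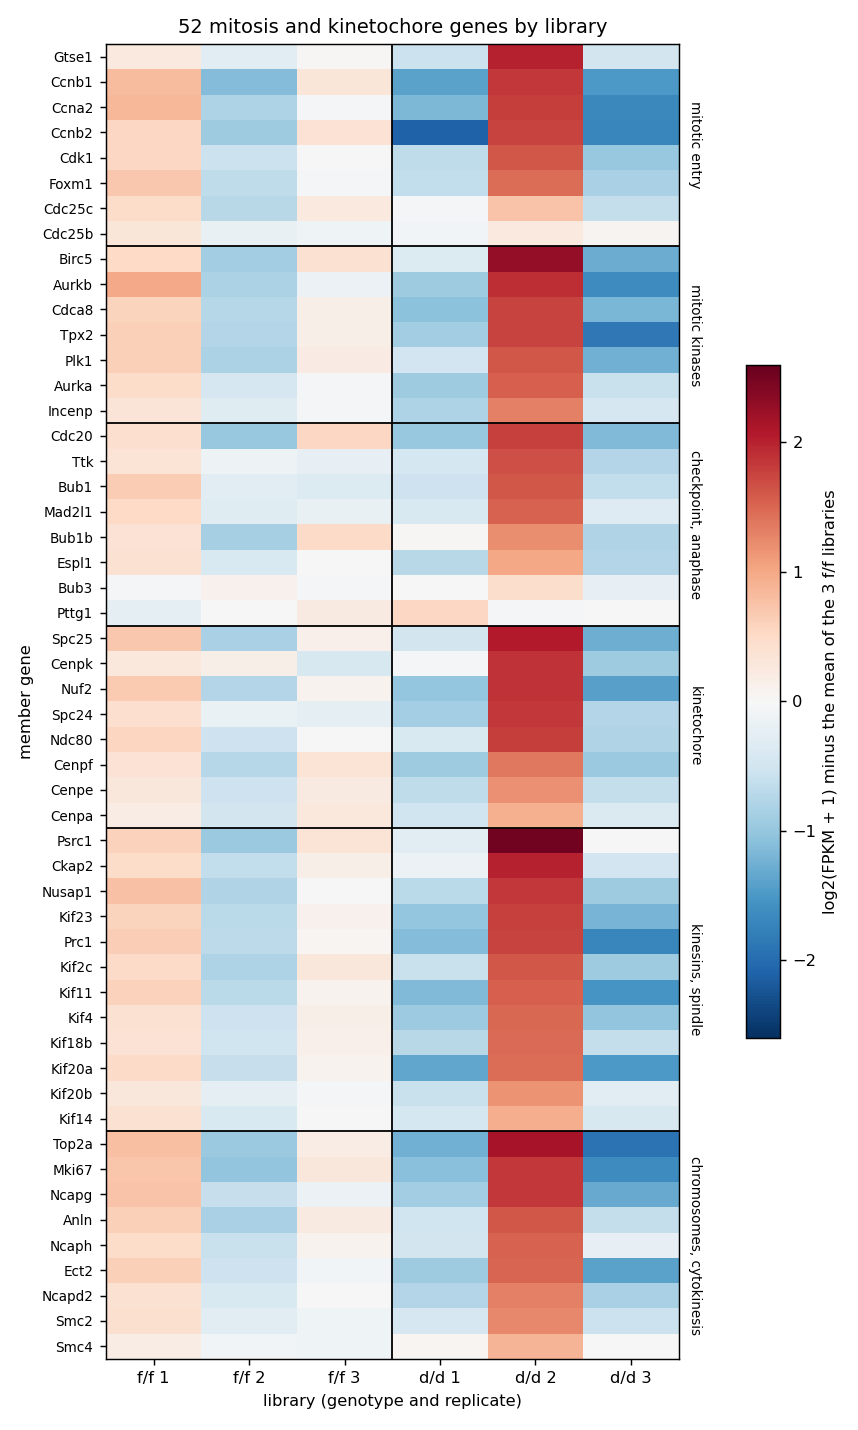
Heat map of all 52 members (rows, grouped by role) in the 6 libraries (columns). Colour gives log2(FPKM + 1) minus the mean of the f/f libraries, red above and blue below. The d/d 2 column is red in nearly every row, the d/d 1 and d/d 3 columns are mostly blue, and Pttg1, Bub3 and Cdc25b stay pale.

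For 5 of the 8 genes of mitotic entry, d/d replicate 2 was above every f/f library and the other d/d libraries were below them. Foxm1, Cdc25b and Cdc25c were the others. Ccna2 (ENSMUSG00000027715), cyclin A2, which acts with Cdk1 and Cdk2 in S and G2 phase, was at 13.7, 3.62 and 6.86 FPKM in f/f and 2.61, 27.3 and 1.54 in d/d libraries. Ccnb1, cyclin B1, was at 6.36, 0.89 and 4.13 in f/f and 0.587, 13.7 and 0.466 in d/d libraries. Ccnb2 (ENSMUSG00000032218), cyclin B2, was at 9.14, 2.67 and 8.07 in f/f and 0.618, 22.5 and 1.14 in d/d libraries, and had the lowest fitted change of all members. For each cyclin the d/d libraries lay on both sides of the f/f range. Cdk1, their kinase partner, was at 5, 1.86 and 3.22 in f/f and 1.62, 11.8 and 1.11 in d/d libraries, so d/d replicate 1 lay close to the lowest f/f library. Foxm1, the transcription factor of this programme, was at 5.17, 1.39 and 2.71 in f/f and 1.44, 9.36 and 1.1 in d/d libraries. Gtse1, which binds microtubules and p53, was at 1.8, 0.924 and 1.43 in f/f and 0.613, 8.43 and 0.702 in d/d libraries, and d/d replicate 2 was 4.68 times the highest f/f library. Cdc25b (ENSMUSG00000027330), a phosphatase that activates Cdk1, was at 20.2, 14 and 14.9 in f/f and 15.3, 19.5 and 17.1 in d/d libraries. Its range of 0.50 log2 units was the smallest of the members, and its groups overlapped almost fully. Cdc25c, the related phosphatase, was at 1.32, 0 and 0.980 in f/f and 0.621, 1.79 and 0.0804 in d/d libraries, too low to be tested.

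Mitotic kinases and the chromosomal passenger complex varied as widely. Aurkb (ENSMUSG00000020897), the kinase of the complex that corrects faulty attachments, was at 8.54, 1.74 and 3.33 FPKM in f/f and 1.55, 17.3 and 0.564 in d/d libraries. Its partner Birc5 (ENSMUSG00000017716), survivin, was at 7, 2.01 and 6.43 in f/f and 3.38, 26.4 and 1.31 in d/d libraries. Here d/d replicate 1 lay inside the f/f range and d/d replicate 2 at 5.13 times the f/f mean. Cdca8, borealin, was at 7.62, 2.45 and 5.39 in f/f and 1.73, 18.3 and 1.52 in d/d libraries. Incenp (ENSMUSG00000024660), the scaffold of the complex, was at 6.91, 4.03 and 5.12 in f/f and 2.57, 14.6 and 3.61 in d/d libraries, a narrower range (2.13 log2 units) than that of its partners Aurkb (3.55) and Birc5 (3.57). Tpx2 (ENSMUSG00000027469), which activates Aurora A on the spindle, was at 8.64, 2.71 and 5.96 in f/f and 2.36, 20.1 and 0.732 in d/d libraries. Aurka (Aurora A) was at 4.24, 1.81 and 2.7 in f/f and 1, 10.1 and 1.56 in d/d libraries. Plk1, polo-like kinase, was at 5.62, 1.44 and 4.05 in f/f and 2.07, 12.2 and 0.841 in d/d libraries. All 7 genes of this role were highest in d/d replicate 2, against 30.1% of all genes tested.

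The checkpoint and anaphase genes included 2 members that, like Cdc25b, varied less than most members. Bub3 (ENSMUSG00000066979), a checkpoint protein that also acts in RNA splicing, was at 36.7, 41.5 and 37 FPKM in f/f and 38.7, 52.6 and 32.7 in d/d libraries. Pttg1 (ENSMUSG00000020415), securin, the inhibitor of separase, was at 35.4, 43 and 49.8 in f/f and 62, 41 and 41.6 in d/d libraries, and was highest in d/d replicate 1. These were the most abundant members. Their ranges were 0.67 and 0.79 log2 units, against a median of 2.62 over the tested members and 0.50 over all genes tested. Espl1, separase itself, was at 1.78, 0.607 and 1.12 in f/f and 0.274, 3.25 and 0.243 in d/d libraries and followed the common order. Cdc20 was at 8.63, 2.61 and 9.37 in f/f and 2.59, 23.4 and 2.23 in d/d libraries, with d/d replicates 1 and 3 just below f/f replicate 2. Mad2l1, the checkpoint inhibitor of Cdc20, was at 11.5, 6.03 and 6.66 in f/f and 5.65, 24.4 and 5.96 in d/d libraries. Bub1b (BubR1) was at 8.91, 3.23 and 9.75 in f/f and 6.9, 16.7 and 3.48 in d/d libraries, so d/d replicates 1 and 3 lay inside the f/f range. The checkpoint kinase Bub1 was at 2.23, 0.684 and 0.606 in f/f and 0.415, 5.28 and 0.333 in d/d libraries, and the checkpoint kinase Ttk at 1.56, 0.821 and 0.735 in f/f and 0.456, 5.4 and 0.185 in d/d libraries. Both reached 1 FPKM in d/d replicate 2 and f/f replicate 1 alone, and neither was tested.

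Kinetochore genes were highest in d/d replicate 2 for 8 of 8, against 30.1% of all genes tested. Cenpa (ENSMUSG00000029177), the histone H3 variant that marks the centromere, was at 9.25, 5.37 and 9.77 FPKM in f/f and 5.25, 16 and 5.89 in d/d libraries, a range of 1.44 log2 units. Spc25 (ENSMUSG00000005233), a subunit of the microtubule-binding Ndc80 complex, was at 11.4, 3.26 and 7.44 in f/f and 4.47, 30.8 and 2.18 in d/d libraries. In its partner Spc24 the low d/d libraries were both below the f/f range. It was at 3.52, 1.93 and 1.78 in f/f and 0.811, 10.8 and 0.945 in d/d libraries. Ndc80 was at 3.77, 1.23 and 2.22 in f/f and 1.46, 10.3 and 0.882 in d/d libraries. Nuf2 was at 4.16, 0.886 and 2.43 in f/f and 0.606, 10.9 and 0.199 in d/d libraries. In d/d replicate 2 the 4 subunits lay between 4.18 times (Spc25) and 4.48 times (Spc24) their f/f means, a narrow band. In d/d replicate 3 they spread from 0.0799 times (Nuf2) to 0.392 times (Spc24). The motor Cenpe was at 1.81, 0.596 and 1.72 in f/f and 0.454, 4.21 and 0.498 in d/d libraries, and the outer kinetochore protein Cenpf at 2.63, 0.671 and 2.57 in f/f and 0.47, 6.24 and 0.432 in d/d libraries. Cenpk, of the inner kinetochore, was at 2.9, 2.62 and 1.41 in f/f and 2.12, 10.9 and 0.712 in d/d libraries, with d/d replicate 1 inside the f/f range.

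**Figure D3:**
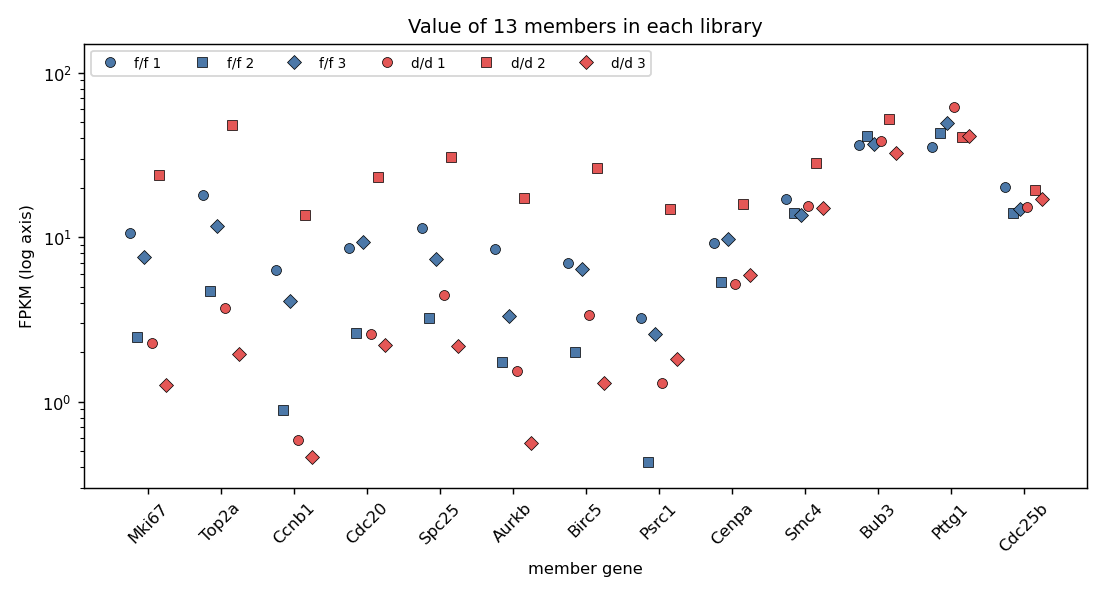
FPKM (log axis) of 13 members in each library, blue for f/f and red for d/d, with a marker shape for each replicate number. For the genes from Mki67 to Bub3 the d/d 2 square is at the top, and for Pttg1 and Cdc25b it is inside the range of the other libraries.

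Kinesins and spindle proteins were highest in d/d replicate 2 for all 12, against 30.1% of all genes tested. Prc1 (ENSMUSG00000038943), which bundles the microtubules of the central spindle, was at 11.9, 4.1 and 7.55 FPKM in f/f and 2.78, 26.8 and 1.55 in d/d libraries. Nusap1 (ENSMUSG00000027306), a microtubule-stabilizing protein, was at 8.29, 2.2 and 4.59 in f/f and 2.37, 18.6 and 1.91 in d/d libraries. Kif11 (ENSMUSG00000012443) was at 6.2, 1.9 and 4.09 in f/f and 1.15, 13 and 0.633 in d/d libraries, and Kif20a (ENSMUSG00000003779), a motor needed for cytokinesis, at 5.76, 2.21 and 4.17 in f/f and 0.892, 12.2 and 0.706 in d/d libraries. For both motors each d/d library lay outside the f/f range, 1 above it and 2 below it. Psrc1 (ENSMUSG00000068744) and Ckap2 (ENSMUSG00000037725), microtubule-associated proteins, differed from them in the low d/d libraries. Psrc1 was at 3.23, 0.432 and 2.58 in f/f and 1.31, 14.8 and 1.82 in d/d libraries, and Ckap2 at 4.89, 1.74 and 3.71 in f/f and 2.81, 16.1 and 2.02 in d/d libraries. In both, d/d replicates 1 and 3 were above f/f replicate 2, while d/d replicate 2 was 4.59 times (Psrc1) and 3.28 times (Ckap2) the highest f/f library. The remaining kinesins were lower, with f/f values from 0.191 (Kif14) to 4.96 FPKM (Kif23). Kif23, of the central spindle, was at 0.98, 12.7 and 0.724 in d/d libraries, Kif2c, which dismantles microtubules at centromeres, at 0.587, 6.26 and 0.246, and the chromosome motor Kif4 at 0.295, 6.08 and 0.232. Kif14, Kif18b and Kif20b were lowest in d/d replicate 1 instead of d/d replicate 3, and Kif14 was too low to be tested.

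Among genes of chromosome structure, Top2a (ENSMUSG00000020914), which untangles sister chromatids, had the widest range of all members, 4.07 log2 units. It was at 18.2, 4.72 and 11.7 FPKM in f/f and 3.7, 48.5 and 1.95 in d/d libraries. Mki67, a widely used marker of dividing cells, was at 10.7, 2.47 and 7.57 in f/f and 2.3, 24 and 1.28 in d/d libraries. The condensin core subunits Smc4 and Smc2 ranged less than Top2a, by 1.00 and 1.80 log2 units. Smc4 (ENSMUSG00000034349) was at 17.2, 14.1 and 13.7 in f/f and 15.5, 28.4 and 15.1 in d/d libraries, with d/d replicates 1 and 3 inside the f/f range. Its partner Smc2 was at 10.3, 5.98 and 6.81 in f/f and 5.29, 19.2 and 4.8 in d/d libraries. The condensin I subunit Ncapd2 was at 13.3, 7.3 and 10.01 in f/f and 5.41, 25.8 and 5.1 in d/d libraries. Ncaph, another, was at 7.04, 2.91 and 5.17 in f/f and 3.14, 15.8 and 3.97 in d/d libraries, and its low d/d libraries lay inside the f/f range. Ncapg, the third of these subunits, was at 4.12, 1 and 1.75 in f/f and 0.627, 9.8 and 0.225 in d/d libraries, 43.6 times higher in d/d replicate 2 than in d/d replicate 3. Ect2, which activates RhoA at the cleavage furrow, was at 5.18, 1.8 and 2.81 in f/f and 1.11, 10.6 and 0.531 in d/d libraries. Anln (anillin), which organizes the contractile ring, was at 7.41, 2.07 and 5.45 in f/f and 2.87, 15.8 and 2.57 in d/d libraries, and there too the low d/d libraries lay inside the f/f range.

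The genotypes were compared with limma on log2(FPKM + 1) over the 12640 genes with at least 1 FPKM in at least 3 libraries. Fold changes on this scale understate those of low genes. Of the members, 48 passed that filter and Cdc25c, Bub1, Ttk and Kif14 did not. No member passed an adjusted p of 0.05, where the share of all genes tested was 0%, and none had an unadjusted p under 0.05, where the share was 4.98%. In no member did every d/d library lie above or below every f/f library, against 10.7% of all genes tested. The median log2 change was 0.00 over the 48 members, with 24 higher and 24 lower in d/d, and 0.03 over all genes tested. This split holds for means of log2(FPKM + 1). By means of FPKM every member was higher in d/d, also Ccnb2 (8.09 against 6.63 in f/f). Changes ran from -0.68 for Ccnb2 (SE 0.96; limma adjusted p = 0.962) to 0.75 for Psrc1 (SE 0.75; adjusted p = 0.947). The SE of the members had a median of 0.655, so that changes of this size are within the spread of the libraries.

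Means hid this spread. Top2a had a mean of 11.6 ± 6.76 (SD, n = 3) FPKM in f/f and 18.1 ± 26.4 (SD, n = 3) in d/d libraries (log2 change -0.34, SE 1.00), so the SD of the d/d libraries exceeded their mean. Its d/d mean was thus higher than that of f/f in FPKM but lower in log2(FPKM + 1). Smc4 had the smallest p of the members, with 15 ± 1.88 (SD, n = 3) in f/f and 19.7 ± 7.58 (SD, n = 3) in d/d libraries (log2 change 0.31, SE 0.24; limma adjusted p = 0.926). Pttg1 was at 42.7 ± 7.22 (SD, n = 3) and 48.2 ± 11.9 (SD, n = 3) (log2 change 0.16, SE 0.20; limma adjusted p = 0.953). The next highest changes after Psrc1 were those of Ckap2 (0.46) and Gtse1 (0.33), and the next lowest after Ccnb2 were those of Kif20a (-0.47) and Kif11 (-0.37). None of these differed by more than the spread between libraries.

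The result rested on d/d replicate 2. Without it the median log2 change was -0.81, 45 of 48 members were lower in d/d, and Pttg1, Smc4 and Cdc25b were the exceptions at 0.26, 0.03 and 0.00. No member then passed an adjusted p of 0.05 (smallest 0.145, for Kif20a), where 0.0949% of all genes did. An unadjusted p under 0.05 was reached by 27 members, all lower in d/d, against 6.57% of all genes tested in that direction. In 30 members both remaining d/d libraries lay below every f/f library, against 14.4% of all genes tested. Ccnb2 had the lowest log2 change, -1.90, followed by Top2a (-1.59) and Ccnb1 (-1.44). Without d/d replicate 1 or 3 the median change was 0.28 and 0.40 instead, and without f/f replicates 1, 2 or 3 it was 0.24, -0.31 and 0.02, with 0 members at an unadjusted p under 0.05 in each. Array quality weights, which give each library a weight by how well it fits the group means, gave d/d replicate 2 the lowest weight (0.224) and d/d replicate 1 the highest (3.74). With them no member passed an adjusted p of 0.05 (smallest 0.0627, for Ccnb2), where 2.5% of all genes did. An unadjusted p under 0.05 was then reached by 18 members in the lower direction, against 13.4% of all genes, and by Pttg1 in the higher one, and the median change was -0.70.

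**Figure D4:**
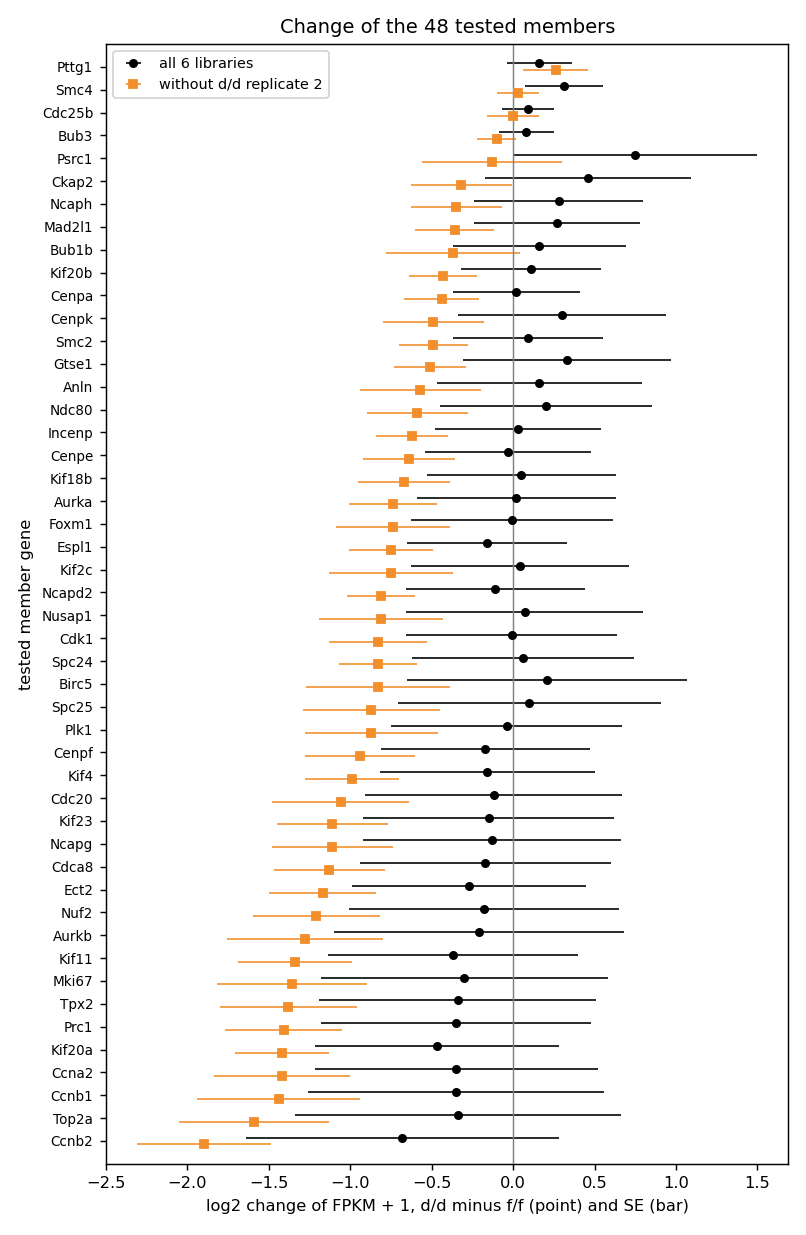
Log2 change of FPKM + 1 (d/d minus f/f, point) with its SE (bar) for the 48 tested members, from all 6 libraries (black circles) and without d/d replicate 2 (orange squares). With all libraries the bars of most members cross 0, and without d/d replicate 2 most points lie to the left, down to -1.90 for Ccnb2.

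Other genes of the pathway were read from lists that share no gene with the members. Of the further mitosis genes, 61 of the 68 listed in the files were tested. None passed an adjusted p of 0.05 or an unadjusted p under 0.05, and the median log2 change was 0.11, with 40 higher and 21 lower. In d/d replicate 2, 58 of the 61 were highest, against 30.1% of all genes tested, and the direction rested on that library. Without it the median was -0.51, 22 genes were lower at an unadjusted p under 0.05 (6.57% of all genes tested), 26 had both remaining d/d libraries below every f/f library (14.4% of all genes tested), and none was called by limma. With array quality weights the median was -0.45, and 11 of the 61 were lower at an unadjusted p under 0.05, against 13.4% of all genes tested. Zwint, a kinetochore protein, was the 1 gene of the 61 whose groups did not overlap, against 10.7% of all genes tested. The smallest p values were those of Mastl, the kinase that restrains PP2A in mitosis (2.93, 1.33 and 1.24 in f/f and 2.73, 4.71 and 2.48 in d/d libraries; log2 change 0.62), and Fbxo5, an inhibitor of the anaphase-promoting complex (6.85, 3.8 and 3.06 in f/f and 6.1, 14.7 and 5.88 in d/d libraries; 0.77). In both, the d/d libraries overlapped f/f replicate 1.

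Genes of DNA replication, active in S phase, had the same highest library as the members. All 25 tested were highest in d/d replicate 2, against 30.1% of all genes tested. None was called or had an unadjusted p under 0.05, and the median log2 change was 0.11. Without d/d replicate 2 the median was -0.49, 15 of the 25 were lower at an unadjusted p under 0.05 (6.57% of all genes tested), 17 had both remaining d/d libraries below every f/f library (14.4% of all genes tested), and none was called by limma. With array quality weights the median was -0.35, and 2 of the 25 were lower at an unadjusted p under 0.05, against 13.4% of all genes tested. Relative to the f/f mean, their list median was 0.27, -0.15 and -0.13 in f/f replicates 1 to 3 and -0.38, 1.49 and -0.64 in d/d replicates 1 to 3. The corresponding medians of the 52 members were 0.49, -0.60 and 0.09, and -0.67, 1.61 and -0.85. The smallest p values were those of Rfc5, a subunit of the clamp loader (12.7, 9.32 and 10.5 in f/f and 12.6, 28.1 and 8.88 in d/d libraries; log2 change 0.42), and Mcm7, of the replicative helicase (31.4, 26.1 and 27.3 in f/f and 25, 59.5 and 28.4 in d/d libraries; 0.30).

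Subunits of the anaphase-promoting complex and of cohesin, which most cells express, varied little. Their 24 genes had a median range of 0.38 log2 units over the libraries, against 2.62 for the tested members and 0.50 for all genes tested. None was called or had an unadjusted p under 0.05, and the median log2 change was 0.07. Anapc15 (7.3, 5.38 and 7.39 in f/f and 10.4, 17.2 and 6.18 in d/d libraries; 0.58) and Cdc26 (15.4, 16.7 and 15.4 in f/f and 18.1, 19.7 and 16.9 in d/d libraries; 0.19) had the smallest p values, and Cdc26 was the 1 gene of the 24 whose groups did not overlap, against 10.7% of all genes tested. The listed DREAM and MMB subunits, which regulate through the CHR, had a median range of 0.61 over 11 genes. Their median log2 change was 0.08, and -0.04 without d/d replicate 2. None was called by limma. An unadjusted p under 0.05, reached by 4.98% of all genes tested, and groups without overlap, found in 10.7%, were each seen in 1 of the 11, so these counts do not set the list apart. That gene was Lin52, of the shared core of both complexes, at 5.23, 5.8 and 5.14 in f/f and 8.08, 6.28 and 7.06 in d/d libraries (log2 change 0.35, SE 0.13; limma adjusted p = 0.922). With array quality weights its limma adjusted p was 0.047, in a fit that called 2.5% of all genes tested. E2f5, which binds DNA in DREAM, followed at 14.4, 18.2 and 16.4 in f/f and 22.5, 17.1 and 18.5 in d/d libraries (log2 change 0.23). The list leaves out Mybl2, an MMB subunit counted among the further mitosis genes, and the member Foxm1. Both were highest in d/d replicate 2. Mybl2 was at 2.01, 0.851 and 1.2 in f/f and 0.675, 5.42 and 0.471 in d/d libraries, and the range of Foxm1 was 2.30 log2 units.

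**Figure D5:**
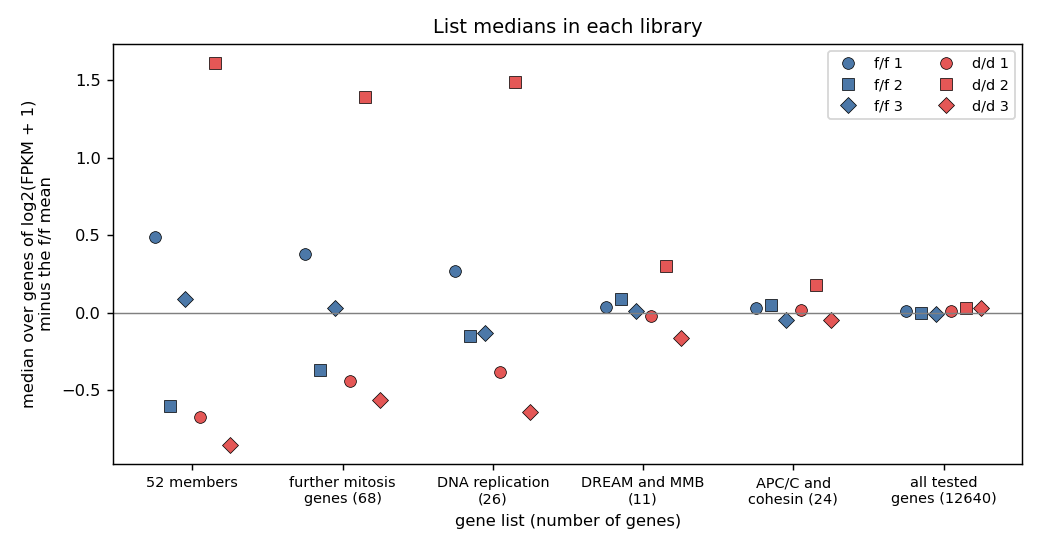
Median over the genes of each list of log2(FPKM + 1) minus the f/f mean, in the f/f (blue) and d/d (red) libraries, with the number of genes in each list. The d/d 2 square stands at 1.61 for the 52 members and 1.49 for DNA replication, but at 0.18 for the anaphase-promoting complex (APC/C) and cohesin and 0.03 for all genes tested.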

How the data were processed

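Polyadenylated RNA of whole uteri (6 libraries) was sequenced after TRIzol extraction and TruSeq preparation, per the labels. The submitters' processing notes name HISAT2 2.2.1, Cufflinks 2.2.1 and build mm10. The authors deposited 1 table per library with 1 value per gene, read here as FPKM from the values and from Cufflinks being named. Annotation, gene filter and strandedness are not given in the sources used here.

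Groups come from the sample titles. Values were analysed as log2(FPKM + 1) with limma 3.58.1 in R 4.3.3 (trend), on 12640 genes with at least 1 FPKM in at least 3 libraries and with Benjamini-Hochberg adjustment over all of them. Because the files hold no counts, the count tests provided for were not run. Relative depth of a library is the most frequent ratio of f/f replicate 1 values to its own, over genes above 0 and under 0.1 FPKM in both. The fit was checked on simulated data. Python 3.11.15 was used for the rest.

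The members, lists and tests were chosen with earlier results of these data known. Named by rule were Nat10, the 2 most abundant members of each role, those with the smallest p, extreme changes or extreme ranges, any without overlap between groups, untested members, and the 2 genes of each pathway list with the smallest p. Values of the other members were added by role after they had been seen. The alternatives tried were scaling (quantile, median, upper quartile), filters, a pseudocount of 0.1, no trend, array weights, the replicate block and leaving out each library. Of the further mitosis genes, Sgo1 and Sgo2a were not analysed here.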

Additional observations from a re-analysis of the deposited data

How the results depend on the processing

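The count of members called stayed at 0 in each of 15 alternatives to the fit (lowest adjusted p of a named member 0.0627). At an unadjusted p under 0.05 there were 0 to 27 members when a library was left out, 19 with array quality weights and 0 under the others. The 27 came without d/d replicate 2, all lower in d/d, against 6.57% of all genes tested in that direction. Of the 19, 18 were lower, against 13.4% of all genes tested. The median log2 change ran from -0.81 to 0.40 over left-out libraries and was -0.70 with array quality weights, the members without overlap from 0 to 30, and the SD ratio from 0.37 to 4.61. The 30 came without d/d replicate 2, all lower, against 14.4% of all genes tested. Array quality weights called 1 gene of the pathway lists, Lin52. The labels do not say whether replicate numbers mark paired libraries. Deviations from the group mean correlated at -0.34, -0.03 and 0.10 between same-numbered libraries. Such deviations are tied to each other within a group, so these values do not settle whether the libraries are paired. With the replicate block, 0 members were called and the median change was 0.00. For Nat10, leaving out each library was the only alternative run, and its log2 change then lay between -1.28 and -0.95. The count tests planned for count files were not run, since the files hold FPKM. Shares of windows with CCAAT fell to 64% of member windows when windows began 100 bases before the start, against 23.4% of all windows.

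Of 293 alternative values for the 20 named and tested members, 47 had the other sign, 32 of them with a library left out, and 0 were called; the cause was not tested. With array quality weights the log2 change was -0.42 for Birc5, -0.09 for Cdc25b, -0.46 for Cenpa, -0.16 for Ckap2, -0.46 for Gtse1, -0.72 for Incenp, -0.74 for Nusap1, -0.21 for Psrc1 and -0.56 for Spc25. Cenpa was at -0.02 (quantile and upper-quartile scaling) and -0.01 (median centring), and Incenp at -0.01 (quantile and upper quartile) and -0.02 (pseudocount 0.1). With that pseudocount the lowest changes of the main fit became -1.13 for Ccnb2, -0.85 for Kif20a and -0.71 for Kif11. The highest became 1.03 for Psrc1, 0.50 for Ckap2 and 0.24 for Gtse1, and the median of the tested members was -0.14. Over left-out libraries the changes ran from -1.28 to 0.50 for Aurkb, -0.83 to 0.96 for Birc5, -0.10 to 0.23 for Bub3, -1.42 to 0.32 for Ccna2, -1.90 to 0.03 for Ccnb2, -0.01 to 0.24 for Cdc25b, -0.44 to 0.28 for Cenpa and -0.32 to 0.93 for Ckap2. They ran from -0.51 to 0.76 for Gtse1, -0.62 to 0.44 for Incenp, -1.34 to 0.21 for Kif11, -1.42 to 0.05 for Kif20a, -0.81 to 0.56 for Nusap1, -1.41 to 0.31 for Prc1 and -0.13 to 1.26 for Psrc1. For Pttg1 they ran from -0.03 to 0.27, for Spc25 from -0.87 to 0.79, for Top2a from -1.59 to 0.45 and for Tpx2 from -1.38 to 0.42. Smc4 kept its sign in every alternative that was run (0.03 to 0.46 over left-out libraries). Absolute depth is unknown, so differences at the lowest values could not be given counting limits.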

Other observations

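Cdkn1a, which encodes the cyclin-dependent kinase inhibitor p21, was at 3.68, 7.23 and 6.27 FPKM in f/f replicates 1, 2 and 3 and at 33.9, 116 and 43.4 in d/d replicates 1, 2 and 3. The library with its highest value was thus also the one with the highest sum over the 52 mitosis genes (843 FPKM), and the d/d libraries with the lowest sums (225 and 179 FPKM) had intermediate Cdkn1a values.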
